A study of Mus musculus with 7 samples.

Results

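Kidney genes that move sulfate, citrate and oxalate, or that make and remove the oxalate precursor glyoxylate, were followed in a mouse model of stone disease. Whether these mice had stones is not among the values used here. The genes are named next. They are Slc13a1, Slc13a2, Slc13a3, Slc26a1, Slc26a6, Agxt, Grhpr, Hoga1 and Prodh2. The 9 genes were chosen by name for these roles out of 45706 genes in the tables, with earlier results of these data known. Of the 9, 8 had enough counts to be tested (Agxt did not). Kidney RNA came from 7 male Slc7a9-/- mice aged 6 months, of which 4 received L-ergothioneine in drinking water at 16 mg/kg/day and 3 were untreated. Slc7a9 encodes a subunit of the renal cystine carrier, its loss gives cystinuria with cystine stones, and ergothioneine is a sulfur-containing antioxidant of the diet. Both groups carry the same genotype, so no value here compares the model with wild-type kidney, and the labels give neither the strain, the length of treatment nor the disrupted part of Slc7a9. The comparison asks how transcript levels differ with ergothioneine.

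The proximal tubule takes filtered sulfate and citrate back from the urine and exchanges oxalate. Slc13a1 (sodium-sulfate cotransport, apical) and Slc26a1 (sulfate and oxalate exchange, basolateral) carry sulfate across the cell in sequence. Slc13a2 takes citrate and dicarboxylates from the urine and Slc13a3 takes them from the blood side. Slc26a6 exchanges oxalate for chloride on the apical side. Citrate in urine binds calcium, and calcium oxalate is the main salt of common kidney stones. Glyoxylate, the precursor of oxalate, is made in the liver and kidney from hydroxyproline by Prodh2 and Hoga1, and is removed by Agxt, a peroxisomal aminotransferase, and Grhpr, a reductase. Loss of AGXT, GRHPR or HOGA1 gives primary hyperoxaluria in people.

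Library totals ran from 17296632 to 19791575 counts with ergothioneine and from 14843899 to 17793544 untreated. CPM below are counts scaled to equal effective library size (TMM), and TPM are also divided by transcript length. Short non-coding RNA took 1.83% to 2.79% of the counts in the 4 ergothioneine libraries and 2.46% in untreated replicate 3, but 0.428% and 0.571% in untreated replicates 1 and 2, so these 2 libraries stand apart. The library names carry index numbers of 40 and over for ergothioneine replicate 1 and untreated replicates 1 and 2, and under 40 for the other 4 libraries; this split is the index range used as a block below, and the labels do not say that it was a batch. Proximal tubule markers, 14 in all and none at 0, summed to 22480 to 24210 CPM with ergothioneine and 22670 to 26190 CPM untreated. Their log2 fold changes were positive for 4 and negative for 10 (median -0.04), and 1 was called higher and 1 lower. These were Gatm (0.24, edgeR adjusted p = 0.0345) and Slc7a13 (-0.56, edgeR adjusted p = 0.000967), both named after their values were seen. The other lists of cell types moved in part: intercalated cell markers summed to 150.5 to 176.6 CPM against 120.1 to 125.2 CPM (3 of 4 higher), adipocyte markers to 11.74 to 20.14 CPM against 51.82 to 63.81 CPM (all 6 tested of 7 lower), and leukocyte markers to 17.69 to 23.7 CPM against 25.88 to 32.8 CPM (1 of 3 tested lower). Among the rest, 1 of 4 thick ascending limb and 1 of 4 podocyte markers were higher, and 1 of 4 tested hepatocyte markers was lower. For distal convoluted tubule, principal cell and endothelium, 0 markers were called. By the same test, 7.16% of all genes tested were called. The part of these cell types in the results below was not tested. In whole kidney, fewer cells of a type and less RNA per cell cannot be told apart. The labels number the mice but name no litter, cage or time of collection, so p-values set the group difference only against the spread among these kidneys.

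The promoters of the 3 genes that passed the test are shown because they carry the start sites of the carriers whose transcripts differed between the groups. They come from RefSeq (GRCm38.p6), 250 bases before to 50 bases after each annotated start, written 5′ to 3′ on the gene's strand; 8 of the 9 genes had a window. Capitals mark matches, on either strand, to an E-box (CACGTG), an antioxidant response element core (TGACNNNGC) or a TATA box (TATAAA). These motifs lie in 7.17%, 12.4% and 13.6% of 32544 windows of that length. Slc13a2 lies at chr11:78422185-78422484 (minus strand), Slc13a3 at chr2:165473148-165473447 (minus strand), and Slc26a1 has a pair of starts, at chr5:108674747-108675046 and at chr5:108675316-108675615 (minus strand).
Slc13a2: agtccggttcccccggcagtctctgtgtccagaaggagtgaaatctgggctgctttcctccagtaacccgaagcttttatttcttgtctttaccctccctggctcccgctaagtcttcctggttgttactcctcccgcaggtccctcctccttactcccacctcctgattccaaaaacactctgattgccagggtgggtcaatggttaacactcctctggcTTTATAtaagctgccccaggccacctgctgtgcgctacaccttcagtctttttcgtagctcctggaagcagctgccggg
Slc13a3: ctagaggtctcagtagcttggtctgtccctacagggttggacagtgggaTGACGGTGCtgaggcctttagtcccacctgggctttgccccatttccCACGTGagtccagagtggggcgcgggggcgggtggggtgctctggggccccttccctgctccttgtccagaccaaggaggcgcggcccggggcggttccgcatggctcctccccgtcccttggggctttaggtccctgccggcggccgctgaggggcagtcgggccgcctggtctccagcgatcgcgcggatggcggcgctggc
Slc26a1 window 1: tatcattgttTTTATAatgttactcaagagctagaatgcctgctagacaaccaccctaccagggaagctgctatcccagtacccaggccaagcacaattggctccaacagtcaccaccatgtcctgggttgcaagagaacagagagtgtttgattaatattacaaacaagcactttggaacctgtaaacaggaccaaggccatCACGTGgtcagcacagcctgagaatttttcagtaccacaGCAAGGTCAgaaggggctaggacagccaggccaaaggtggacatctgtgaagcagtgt
Slc26a1 window 2: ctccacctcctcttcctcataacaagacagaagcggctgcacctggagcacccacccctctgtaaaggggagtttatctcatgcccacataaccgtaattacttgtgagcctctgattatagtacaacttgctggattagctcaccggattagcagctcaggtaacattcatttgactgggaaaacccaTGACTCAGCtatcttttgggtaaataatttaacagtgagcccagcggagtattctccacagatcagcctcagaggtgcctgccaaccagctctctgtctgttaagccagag
The Slc13a2 window holds a TATA box 29 bases before the start and neither of the other motifs. Slc13a3 holds an antioxidant response core 201 bases and an E-box 154 bases before its start. Each Slc26a1 window holds an antioxidant response core, at 8 and at 61 bases before its own start, and the first also holds an E-box 47 bases and a TATA box 240 bases before it. A HNF1 half-site (GTTAAT, in 7.13% of windows) was found in the windows of Hoga1 and Prodh2, a D-box (TTATGNAA, in 3.39%) in none of the 8, and no motif searched was found for Slc26a6, Agxt or Grhpr. A match describes these letters only.

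Of the 8 tested genes, ergothioneine kidneys had 1 higher (Slc26a1) and 2 lower (Slc13a2 and Slc13a3), and 5 did not pass (edgeR quasi-likelihood test, adjusted p under 0.05 over all 15399 genes tested). Over all genes tested 7.16% were called, 3.58% higher and 3.57% lower. The groups did not overlap in CPM for 3 of the 8 genes, against 18.6% of all genes tested. The median log2 fold change of the 8 was -0.12, and that of all genes tested was -0.003. The changes were 23.9% higher for Slc26a1, 22.1% lower for Slc13a2 and 19.4% lower for Slc13a3. Against untreated replicate 3 alone, and so without the 2 libraries that stand apart, 0 of the genes were called higher and 1 lower.

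Slc13a1 (ENSMUSG00000029700, chr6:24088283-24168092), the apical sulfate carrier, spread widely within the treated kidneys. It had 402.6, 387.4, 512.1 and 308.4 CPM in ergothioneine replicates 1 to 4, against 486.6, 441.4 and 407.7 CPM in untreated replicates 1 to 3. Replicate 3 of the treated kidneys was above every untreated one and replicate 4 below all of them, so the groups overlap. The log2 fold change was -0.15 ± 0.17 (SE; 95% interval -0.57 to 0.27) and did not pass (edgeR adjusted p = 0.719). Single kidneys moved it: it was -0.29 without ergothioneine replicate 3, -0.037 without ergothioneine replicate 4 and -0.075 without untreated replicate 1.

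Slc26a1 (ENSMUSG00000046959, chr5:108669878-108675569), the basolateral sulfate and oxalate exchanger, rose with ergothioneine. It had 174.9, 177.2, 165.8 and 158.9 CPM in ergothioneine replicates 1 to 4 and 130.5, 130.8 and 148.6 CPM in untreated replicates 1 to 3. In CPM every treated kidney was above every untreated one, and untreated replicate 3 was nearest to them. The means were 169 ± 8.45 CPM (SD, n = 4) and 137 ± 10.4 CPM (SD, n = 3), a log2 fold change of 0.31 ± 0.06 (SE; 95% interval 0.18 to 0.44; edgeR adjusted p = 0.00577). The call held without each library in turn (edgeR adjusted p from 0.00233 to 0.0360) but not against untreated replicate 3 alone (0.19, edgeR adjusted p = 0.247). On log2(TPM + 1) it was -0.12, but there the median gene lay at -0.31, so Slc26a1 stood above the median; with short non-coding genes left out of TPM it was 0.25 and did not pass (limma adjusted p = 0.409). The exons share 141 bases with Idua on the opposite strand; Idua had 9.12 to 11.1 CPM with ergothioneine and 8.56 to 9.49 CPM untreated, a log2 fold change of 0.11 (edgeR adjusted p = 0.670). The libraries are stranded, but no source used here gives the strand setting of the counting, so reads of overlapping partners cannot be told apart.

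Slc13a2 (ENSMUSG00000001095, chr11:78397087-78422217), the apical citrate carrier, fell in every treated kidney relative to every untreated one. It had 42.24, 38.71, 37.92 and 39.64 CPM in ergothioneine replicates 1 to 4 and 49.82, 47.57 and 55.28 CPM in untreated replicates 1 to 3. The groups do not overlap, and untreated replicate 3 was the highest kidney. The means were 39.6 ± 1.88 CPM (SD, n = 4) and 50.9 ± 3.96 CPM (SD, n = 3), a log2 fold change of -0.36 ± 0.07 (SE; 95% interval -0.51 to -0.21; edgeR adjusted p = 0.00398). The call held without each library in turn and against untreated replicate 3 alone (-0.48, edgeR adjusted p = 0.00856), but not on TPM without short non-coding genes (-0.34, limma adjusted p = 0.196). Its antisense partner Slc13a2os, which shares 632 exonic bases, had 1, 4, 4 and 4 counts with ergothioneine and 3, 3 and 2 counts untreated.

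Slc13a3 (ENSMUSG00000018459, chr2:165405028-165473230), the basolateral dicarboxylate carrier, also fell, and was the most abundant of the 9 genes. It had 813.6, 894.5, 884.4 and 731.6 CPM in ergothioneine replicates 1 to 4 and 1076, 954 and 1064 CPM in untreated replicates 1 to 3. The groups do not overlap in CPM, and treated replicate 2 lies nearest to untreated replicate 2. The means were 831 ± 75.4 CPM (SD, n = 4) and 1031 ± 67.0 CPM (SD, n = 3), a log2 fold change of -0.31 ± 0.08 (SE; 95% interval -0.47 to -0.15; edgeR adjusted p = 0.0189). This call was lost without untreated replicate 1 (-0.28, adjusted p = 0.0835), untreated replicate 3 (-0.29, 0.0677) or ergothioneine replicate 1 (-0.30, 0.0755), and against untreated replicate 3 alone (-0.35, 0.0777), all by edgeR. It was also lost on log2(TPM + 1), log2(TPM + 0.1) and TPM without short non-coding genes (limma adjusted p = 0.0699, 0.0746 and 0.270). The direction was lower in each of these fits.

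**Figure D1:**
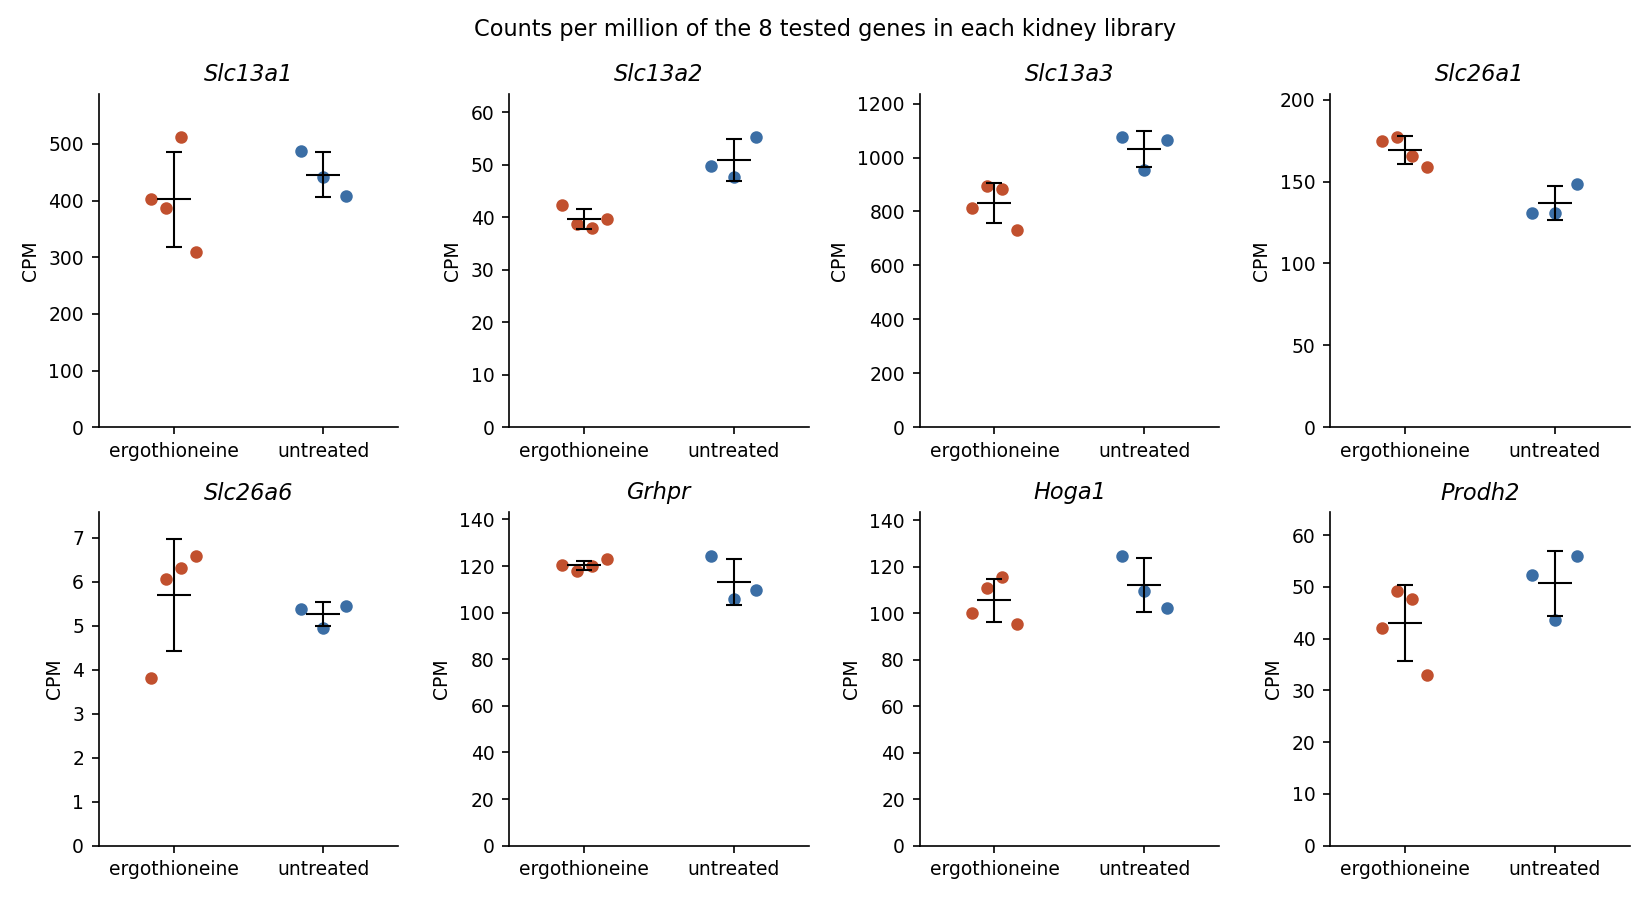
CPM of the 8 tested genes in each library (points; ergothioneine red, untreated blue), with the mean and SD as bars and every axis starting at 0. The groups do not overlap for Slc13a2, Slc13a3 and Slc26a1.

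Slc26a6 (ENSMUSG00000023259, chr9:108853283-108913049), the apical oxalate exchanger, was low. It had 3.804, 6.071, 6.311 and 6.598 CPM in ergothioneine replicates 1 to 4, from 67 to 121 counts, and 5.384, 4.958 and 5.451 CPM untreated, from 74 to 95 counts. Treated replicate 1 was below and the other 3 treated kidneys above all untreated ones. The log2 fold change was 0.11 ± 0.18 (SE; 95% interval -0.27 to 0.49; edgeR adjusted p = 0.793). The deposited TPM gave 2.74, 3.65, 7.35 and 5.08 with ergothioneine and 9.97, 8.04 and 7.71 untreated, and its log2(TPM + 1) change was -0.81 (limma adjusted p = 0.0621). The ratio of CPM to TPM rescaled without short non-coding genes ran from 0.481 to 0.861 and 0.870 in treated libraries and from 0.364 to 0.520 in untreated ones for this gene of 10 annotated transcripts, so no direction is given.

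The glyoxylate enzymes showed no change that passed. Grhpr (ENSMUSG00000035637, chr4:44981395-44990734) had 120.5, 117.7, 120 and 122.8 CPM with ergothioneine and 124.5, 105.7 and 109.5 CPM untreated (log2 fold change 0.09 ± 0.06 (SE), 95% interval -0.04 to 0.22, edgeR adjusted p = 0.487). Hoga1 (ENSMUSG00000025176, chr19:42045610-42070953) had 99.99, 111, 115.6 and 95.59 CPM with ergothioneine and 124.9, 109.8 and 102.2 CPM untreated (-0.09 ± 0.08, -0.26 to 0.08, adjusted p = 0.582). Leaving out 1 library moved Grhpr between 0.038 (without untreated replicate 2) and 0.16 (without untreated replicate 1), and Hoga1 between -0.15 (without untreated replicate 3) and -0.0039 (without untreated replicate 1). Prodh2 (ENSMUSG00000036892, chr7:30493622-30513402), the hydroxyproline dehydrogenase, had 41.96, 49.23, 47.62 and 32.99 CPM with ergothioneine and 52.2, 43.69 and 56.05 CPM untreated, with replicate 4 of the treated kidneys the lowest. Its log2 fold change was -0.24 ± 0.15 (SE), and the interval of -0.58 to 0.10 covers the size of the Slc13a2 change (edgeR adjusted p = 0.427). Agxt (ENSMUSG00000026272, chr1:93135240-93145421) had 1, 2, 2 and 0 counts with ergothioneine and 0 counts in each untreated library; 0 counts allow up to 3, or 0.166 CPM in ergothioneine replicate 4 and 0.169 to 0.202 CPM untreated, counting error only. Ahsg, 1 of 6 hepatocyte markers, was not tested in edgeR and was named after its values were seen. It had 13, 5, 51 and 1 counts with ergothioneine and 0 in each untreated library. The 6 markers together overlapped between the groups, at 100.6 to 147.5 CPM with ergothioneine and 120.3 to 135.4 CPM untreated. Of the 4 tested, 0 were higher and 1 was lower. The lower one, Serpina1a (log2 fold change -0.36, edgeR adjusted p = 0.00257), was also named after its values were seen. Any link between these markers and the Agxt counts was not tested.

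Levels per length (TPM rescaled without short non-coding genes) ordered the genes as follows. Slc13a3 was highest at 420 ± 41.8 TPM with ergothioneine and 522 ± 69.7 TPM untreated (SD), and Slc13a1 followed at 278 ± 54.1 and 305 ± 21.0 TPM. Grhpr stood at 190 ± 7.25 and 179 ± 17.5 TPM and Hoga1 at 123 ± 12.7 and 131 ± 12.5 TPM. Slc26a1 (84.1 ± 6.53 and 71.1 ± 13.1 TPM) and Prodh2 (55.6 ± 8.23 and 64.4 ± 12.6 TPM) were the only neighbours whose ranges overlapped. Slc13a2 had 29.1 ± 1.04 and 37.3 ± 5.81 TPM, Slc26a6 8.55 ± 3.70 and 12.0 ± 2.77 TPM, and Agxt at most 0.159 TPM in any library. On this scale the groups overlapped for Slc26a1, with untreated replicate 3 at 86.18 TPM and ergothioneine kidneys from 79.63 to 93.71 TPM. They also overlapped for Slc13a3, with ergothioneine replicate 2 at 472.7 TPM and untreated replicate 2 at 452.5 TPM. Those of Slc13a2 did not (27.54 to 29.77 against 32.63 to 43.81 TPM).

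**Figure D2:**
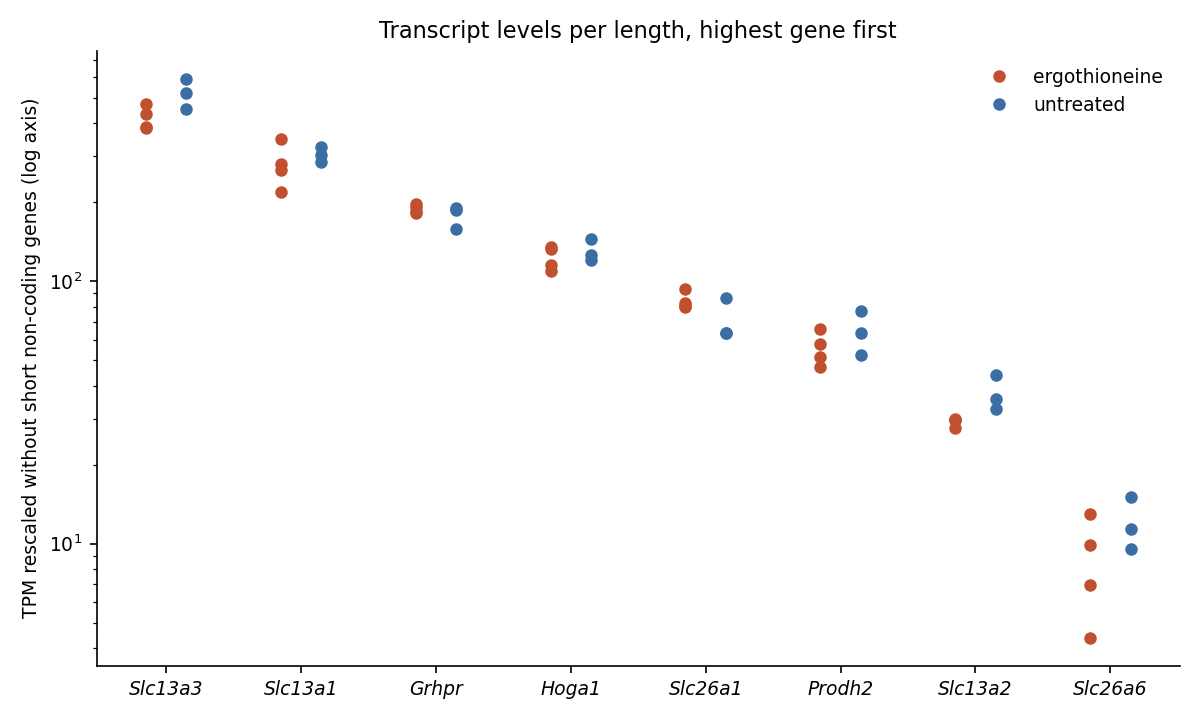
TPM rescaled without short non-coding genes (log axis) for the 8 tested genes, highest first, 1 point per library. Neighbouring genes do not overlap except Slc26a1 and Prodh2.

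Ratios of counts within a library, which need no scaling between libraries, set the exchanger that rose against the carriers that fell. Slc26a1 over Slc13a2 was 4.14, 4.578, 4.371 and 4.008 with ergothioneine and 2.619, 2.749 and 2.688 untreated. Slc26a1 over Slc13a3 was 0.2149, 0.1981, 0.1874 and 0.2172 with ergothioneine and 0.1213, 0.1371 and 0.1397 untreated. Neither ratio overlaps between the groups. This had to be so, since Slc26a1 was higher and Slc13a2 and Slc13a3 lower in CPM without overlap. These ratios were chosen with the changes above in view and are a description. Slc26a1 over Slc13a1, the pair that carries sulfate in sequence, ran from 0.3237 to 0.5153 with ergothioneine and from 0.2681 to 0.3644 untreated and overlapped. Slc13a3 over Slc13a2 ran from 18.46 to 23.32 and from 19.24 to 21.59 and overlapped.

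**Figure D3:**
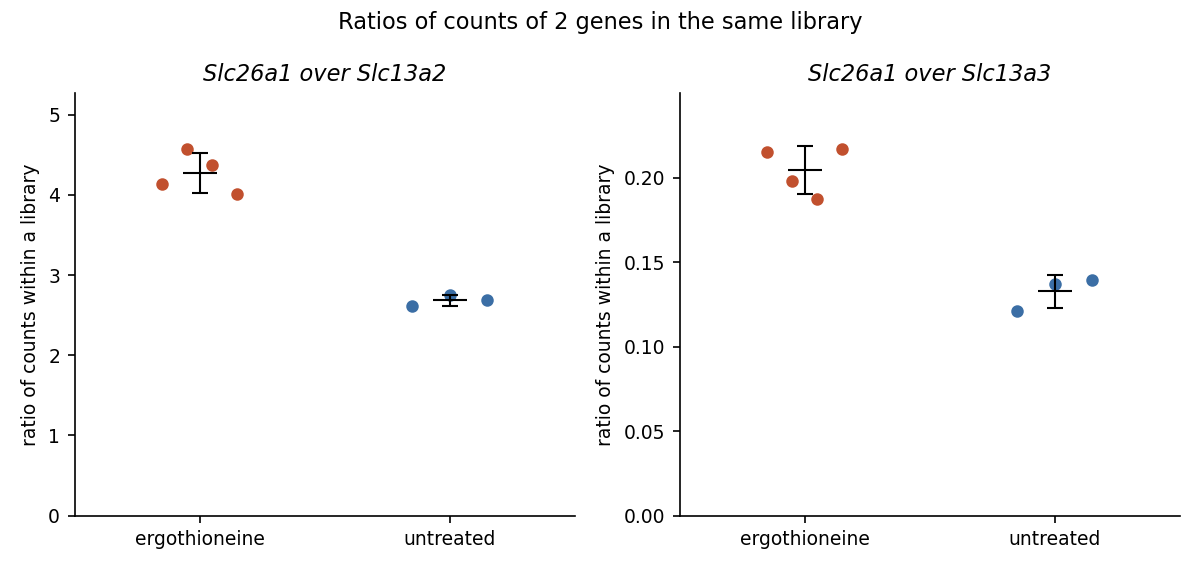
Ratio of Slc26a1 counts to Slc13a2 counts (left) and to Slc13a3 counts (right) in each library, with mean and SD. Every ergothioneine library lies above every untreated one in both, which follows from the CPM ranges of these genes.

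No kidney was lowest or highest of its group for all 8 tested genes. Ergothioneine replicate 4 was the lowest treated kidney for 5 (Slc13a1, Slc13a3, Slc26a1, Hoga1 and Prodh2) and the highest for 2 (Slc26a6 and Grhpr). Untreated replicate 2 was the lowest untreated kidney for 5 (Slc13a2, Slc13a3, Slc26a6, Grhpr and Prodh2). Untreated replicate 1 was the highest for 4 (Slc13a1, Slc13a3, Grhpr and Hoga1) and the lowest for Slc26a1, and untreated replicate 3 was the highest for the other 4 and the lowest for Slc13a1 and Hoga1. Over the 7 libraries the patterns most like each changed gene, among 9519 genes screened, were those of Ylpm1, Trim56 and Atp11a for Slc13a2 (Pearson r = 0.993, 0.985 and 0.981) and of Fmo1, Pklr and Foxo3 for Slc13a3 (0.991, 0.988 and 0.987). Those for Slc26a1 were Ctdspl, Tmem116 and Cbs (0.994, 0.987 and 0.986). The libraries share their group difference and depth, so these values are a description.

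Among 11 relatives of the SLC13 and SLC26 families, 7 were tested, 1 was higher, 1 lower and 5 did not pass (median log2 fold change 0.03). For this list and those below, the share over all genes tested was 7.16% called, 3.58% higher and 3.57% lower. Counts in lists this short are a description. Slc13a4, a sulfate carrier known from placenta and brain, had 2.158, 1.973, 2.513 and 1.854 CPM with ergothioneine and 5.611, 4.556 and 3.783 CPM untreated, a log2 fold change of -1.13 ± 0.20 (SE; edgeR adjusted p = 0.00199), and did not pass against untreated replicate 3 alone (-0.83, edgeR adjusted p = 0.150). Slc26a4, the pendrin chloride-bicarbonate exchanger of intercalated cells, averaged 63.4 ± 5.21 CPM with ergothioneine and 48.8 ± 3.89 CPM untreated (0.38 ± 0.08, edgeR adjusted p = 0.00474). Of the intercalated cell markers, 3 of 4 were higher, and both this count and the summed CPM given above include Slc26a4. The marker that was not called, Foxi1, had a log2 fold change of 0.0099 (edgeR adjusted p = 0.9835) and was named after its values were seen. Slc13a5, the sodium-citrate carrier of liver, did not pass (-0.36 ± 0.31, edgeR adjusted p = 0.573) and was named after its values were seen.

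Of 14 further genes of glyoxylate and hydroxyproline metabolism, 12 were tested, 1 was higher, 1 lower and 10 did not pass (median 0.03). Prodh, the proline dehydrogenase, averaged 174 ± 18.8 CPM with ergothioneine and 137 ± 10.2 CPM untreated (0.35 ± 0.08, edgeR adjusted p = 0.0165; 0.0872, 0.0830 and 0.0539 without untreated replicate 2, untreated replicate 3 and ergothioneine replicate 1). Ddo, the D-aspartate oxidase, averaged 41.1 ± 1.48 and 49.6 ± 3.99 CPM (-0.27 ± 0.07, edgeR adjusted p = 0.0239; 0.117, 0.0844 and 0.0708 without untreated replicate 3, ergothioneine replicate 1 and ergothioneine replicate 2). Hao2, a hydroxy acid oxidase of kidney, had 436.1, 433.3, 432.4 and 260.5 CPM with ergothioneine and 399.1, 429.5 and 380.4 CPM untreated, and Dao, the D-amino acid oxidase that acts on glycine, averaged 243 ± 9.66 and 259 ± 15.5 CPM; neither passed (edgeR adjusted p = 0.939 and 0.436) and both were named after their values were seen.

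Of 17 genes that form, activate or use sulfate, all were tested, 3 were higher, 0 lower and 14 did not pass (median 0.05). Ethe1, the mitochondrial persulfide dioxygenase of sulfide breakdown, rose most, to 83.92, 81, 80.52 and 70.89 CPM with ergothioneine, against 46.87, 52 and 50.28 CPM untreated (0.67 ± 0.07, edgeR adjusted p = 1.40e-05). Slc35b2, which carries activated sulfate into the Golgi, averaged 28.5 ± 1.62 and 21.2 ± 0.511 CPM (0.43 ± 0.08, edgeR adjusted p = 0.00257). Bpnt1, a nucleotidase that removes a product of sulfation, averaged 290.2 ± 12.1 and 253 ± 6.15 CPM (0.20 ± 0.06, edgeR adjusted p = 0.0409), and its call was lost without any 1 library other than ergothioneine replicate 3 (adjusted p up to 0.134).

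Of 20 genes of citrate and dicarboxylate metabolism, all were tested, 3 were higher, 1 lower and 16 did not pass (median -0.01). Idh1, the cytosolic isocitrate dehydrogenase, averaged 518 ± 18.7 CPM with ergothioneine and 409 ± 26.4 CPM untreated (0.34 ± 0.06, edgeR adjusted p = 0.00257). Slc25a10, the mitochondrial dicarboxylate carrier, averaged 281 ± 17.3 and 363 ± 41.2 CPM (-0.37 ± 0.07, edgeR adjusted p = 0.00530). Idh3a (0.20 ± 0.05, adjusted p = 0.0237) and Slc25a1, the mitochondrial citrate exporter (0.22 ± 0.06, adjusted p = 0.0365), were higher by edgeR; Slc25a1 was lost without any 1 library other than ergothioneine replicate 3 (up to 0.105), and Idh3a without any but untreated replicate 2 or ergothioneine replicate 3 (up to 0.0877).

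Of 10 brush border scaffold proteins and exchanger partners, 0 were higher, 1 was lower and 9 did not pass (median -0.12). Car14, a membrane carbonic anhydrase, averaged 61.1 ± 5.42 CPM with ergothioneine and 80.5 ± 12.0 CPM untreated (-0.40 ± 0.10, edgeR adjusted p = 0.0261), lost without untreated replicate 1 (0.0807), untreated replicate 3 (0.0709) or ergothioneine replicate 2 (0.0509), and with the index range as a block (-0.35, 0.0897). Pdzk1, a scaffold of apical carriers, averaged 577 ± 13.2 and 654 ± 25.4 CPM and missed the threshold in edgeR (-0.18 ± 0.06, adjusted p = 0.0714) but passed in DESeq2 (adjusted p = 0.0133). Stk39, a kinase known to act on ion carriers, had 36.1 ± 2.86 and 29.8 ± 2.92 CPM (0.28 ± 0.08, edgeR adjusted p = 0.0523), and missed or passed the threshold with the setting. It passed without untreated replicate 2 (0.0289), without ergothioneine replicate 3 (0.0234), with the index range as a block (0.0243), with no low-count filter (0.0132), with upper-quartile scaling (0.0487) and with short non-coding genes left out (0.0488), and did not in the other edgeR fits at this threshold (0.0515 to 0.190). On the 2 TPM scales that keep short non-coding genes its value was -0.086 and -0.090, above the median gene there. Both were named after their values were seen. Against untreated replicate 3 alone, edgeR called 0 of the SLC13 and SLC26 relatives, 1 glyoxylate gene (Ddo), 1 sulfate gene (Ethe1), 2 citrate genes (Slc25a10 and Idh1) and 0 brush border genes.

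**Figure D4:**
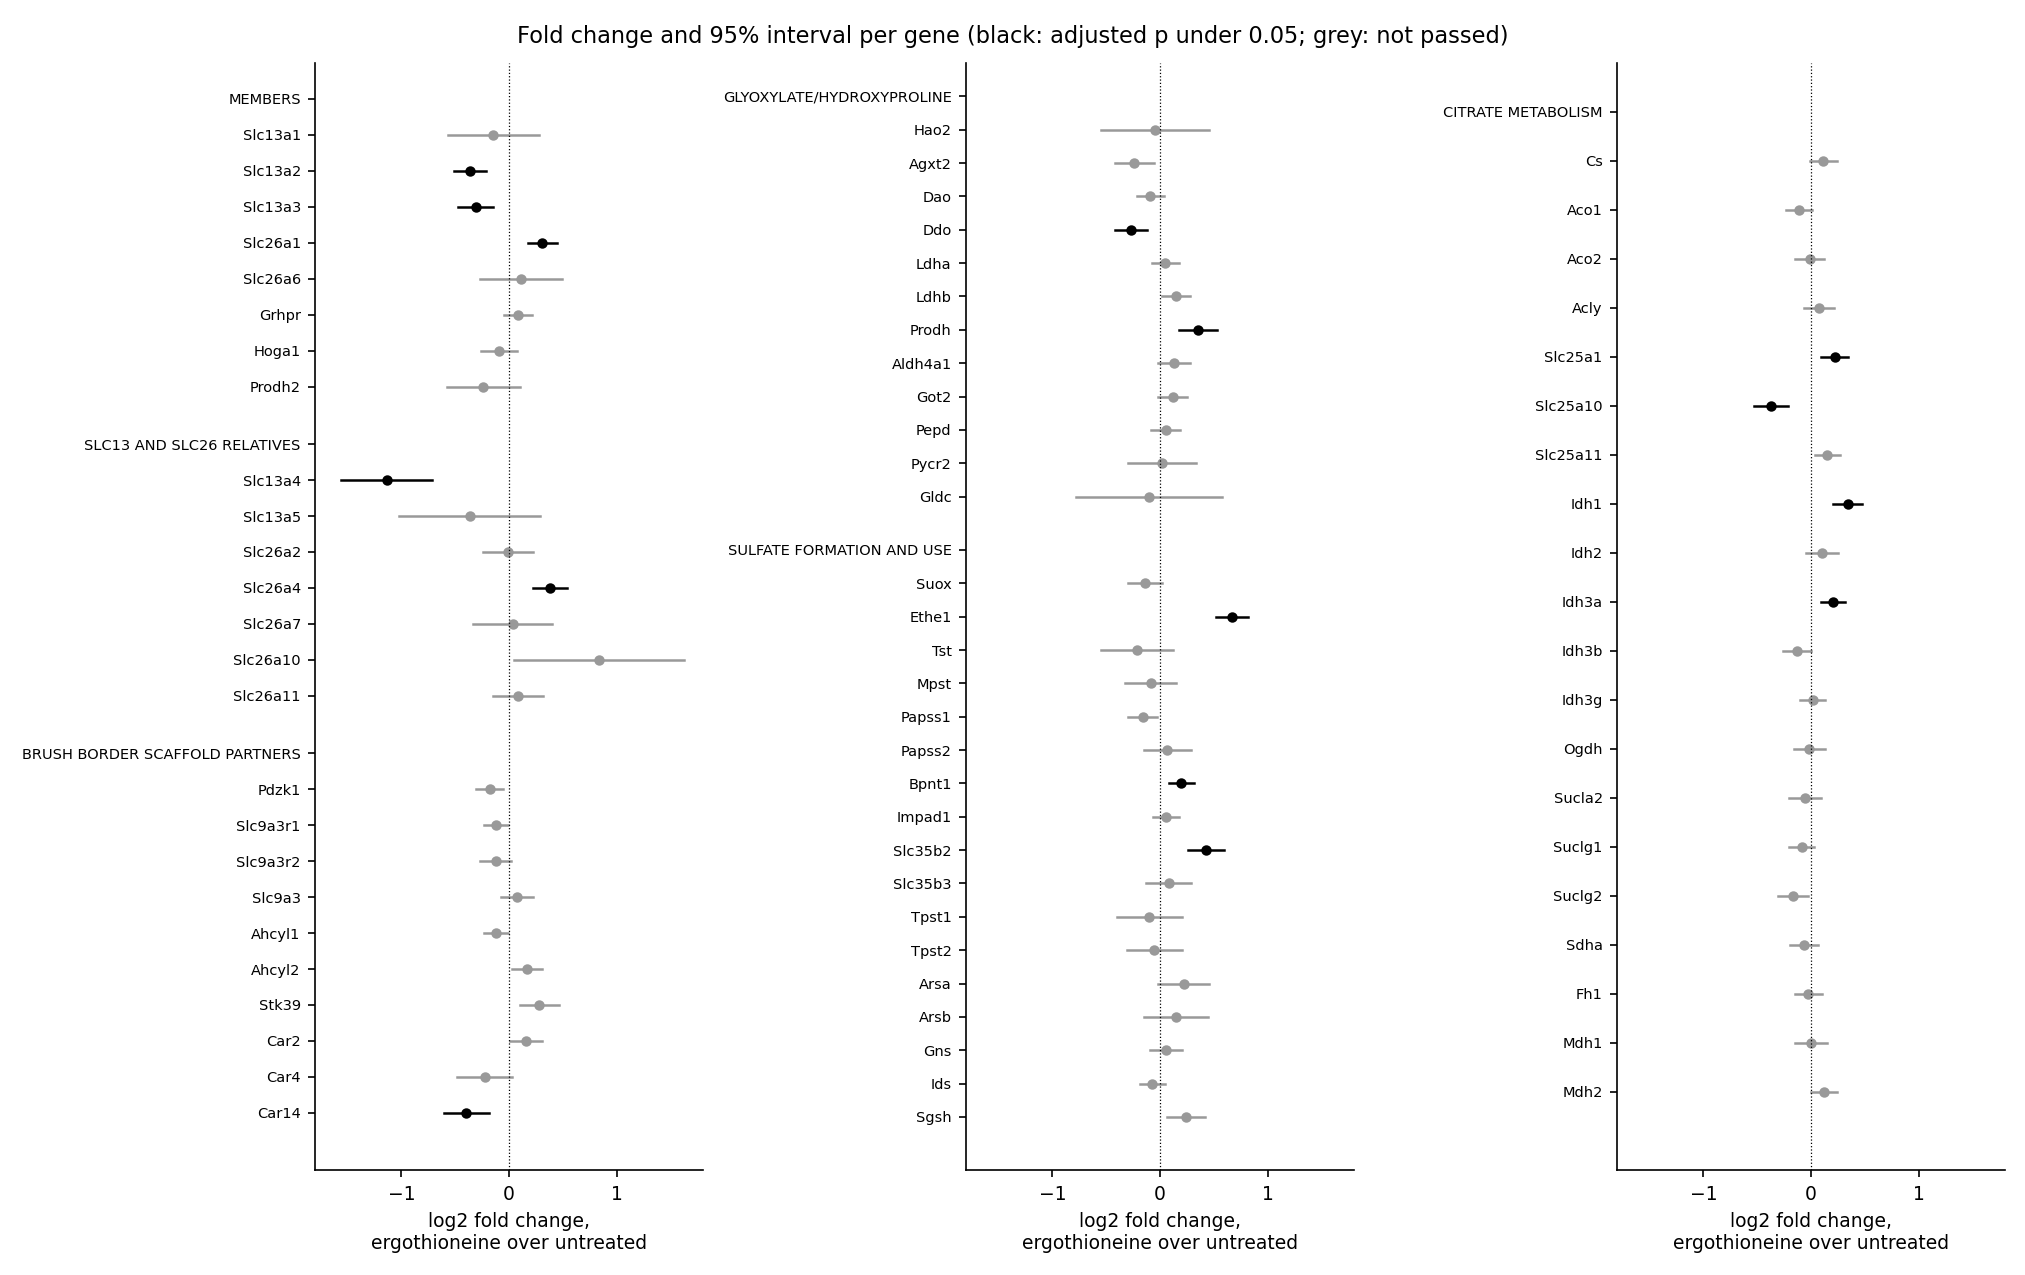
Log2 fold change with 95% interval for the 8 tested genes and the 5 lists; black points passed the edgeR threshold and grey points did not. Within the 8 genes, Slc13a2 and Slc13a3 lie left of 0 and Slc26a1 right of it.

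**Figure D5:**
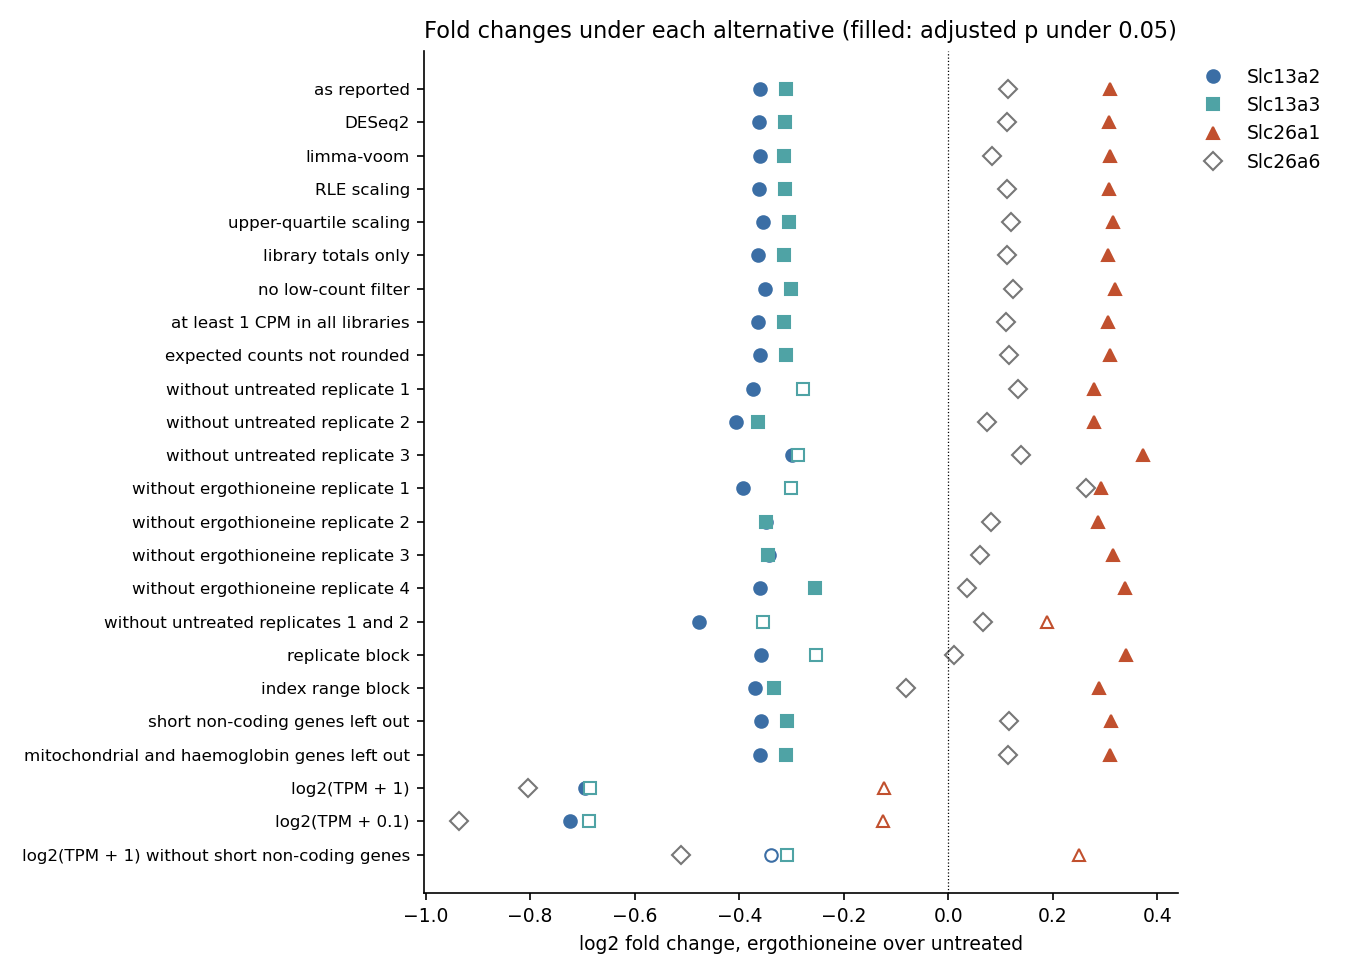
Log2 fold change of Slc13a2, Slc13a3, Slc26a1 and Slc26a6 as reported and in each alternative; filled points passed the threshold. Slc13a2 and Slc13a3 are below 0 in every setting shown, Slc26a1 is below 0 on the 2 TPM scales that keep short non-coding genes, and Slc26a6 lies on both sides of 0.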

How the data were processed

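Kidney RNA of 7 mice was depleted of ribosomal RNA and sequenced as stranded libraries, per the labels' protocols. Expected counts and TPM of 45706 genes were deposited by the authors; 3.61% of the expected counts were not whole, so reads shared by similar genes were split. Per the submitters' processing notes the tools included STAR 2.7.10a, RSEM 1.3.1 and Salmon 1.10.1 and the build was GRCm38; no source used here gives the annotation release or strand setting. Symbols and positions came from GENCODE M21 (45143 identifiers matched). Expected counts were rounded and tested in edgeR 4.0.16 (R 4.3.3): filterByExpr by group, TMM, robust quasi-likelihood test over 15399 genes, Benjamini-Hochberg, threshold 0.05; limma 3.58.1 and DESeq2 1.42.0 were alternatives. Standard errors are the log2 fold change over the square root of F, and the median over genes was 0.11. Replicate libraries differed from each other by 7.48 to 25.4 times sampling noise, so none is a copy. The script was tested on simulated data. Genes and lists were chosen with earlier results of these data known. Named genes are the 9, those of each list past the threshold, the 3 most alike per changed gene (mean log2 CPM of at least 3, predicted genes left out) and genes overlapping the 9; others are marked where they stand. Short non-coding genes are not protein coding, with a median transcript under 400 nt.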

Additional observations from a re-analysis of the deposited data

Results flagged for a closer look

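In 27 genes examined, 3 had 1 ergothioneine kidney far from the other 3, judged by the gap to the nearest other value over the whole range (above Dixon's 95% critical value), and it was replicate 4 each time. The genes examined were the tested ones of the 9, genes past the threshold, overlapping genes and some named after their values were seen, Hao2 among them. Chance flags about 1 in 20 groups of independent values. These genes share their libraries and were partly picked by their values, so the number of flags is a description. Hao2 had 260.5 CPM in replicate 4 and 432.4 to 436.1 CPM in the others (0.979 of the range). Car14 had 53.06 CPM there and 62.93 to 64.44 CPM in the others (0.867). 4933411K16Rik, which shares 43 exonic bases with Hoga1 on the same strand, had 12.0 CPM there and 9.141 to 9.512 CPM in the others (0.870); its group difference did not pass (log2 fold change -0.02, edgeR adjusted p = 0.947).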

How the results depend on the processing

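In all, 1102 genes were called (552 higher, 550 lower). Leaving out 1 library gave 692 to 1103; leaving out untreated replicates 1 and 2, where replicate 3 is assumed to vary like the treated group, gave 556 (249 higher, 307 lower); log2(TPM + 1) gave 536 (19 higher, 517 lower), log2(TPM + 0.1) 458 (18 and 440) and TPM without short non-coding genes 116 (51 and 65); thresholds of 0.01 and 0.1 gave 481 and 1741. The median gene lay at -0.31 on log2(TPM + 1) and -0.37 on log2(TPM + 0.1), and at 0.0025 on log2(TPM + 1) without short non-coding genes. Same-numbered kidneys did not deviate together (r = 0.027, -0.068 and 0.0027; no untreated kidney matched its own number best).

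Of the 9 genes, the 1 higher (1 to 1 without 1 library) went to 0 without untreated replicates 1 and 2 and on all 3 TPM scales; the 2 lower (1 to 2) went to 1 without untreated replicates 1 and 2, with the replicate block, on both TPM scales with short non-coding genes and at 0.01, and to 0 on TPM without them. With the replicate block Slc13a3 had -0.25 (edgeR adjusted p = 0.110). Leaving out 1 library gave 2 to 2 called relatives (of 2), 0 to 2 glyoxylate genes (of 2), 2 to 3 sulfate genes (of 3), 2 to 4 citrate genes (of 4) and 0 to 2 brush border genes (of 1). Without untreated replicates 1 and 2 these were 0, 1, 1, 2 and 0; on log2(TPM + 1) and log2(TPM + 0.1) 1, 0, 0, 0 and 0; on TPM without short non-coding genes 1, 0, 1, 0 and 0. The replicate block left 1 glyoxylate gene (Ddo lost, adjusted p = 0.0509), 2 sulfate genes (Bpnt1 lost, 0.116) and 2 citrate genes (Slc25a1 and Idh3a lost, 0.172 and 0.110), the index range block 2 citrate genes (Slc25a1 and Idh3a lost, 0.0880 and 0.0562) and 1 brush border gene (Stk39, higher, in place of Car14), and 0.01 left 0 glyoxylate, 2 citrate and 0 brush border genes. Brush border genes were 2 with DESeq2, upper-quartile scaling, no filter or short non-coding genes left out, and 3 at 0.1.

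On log2(TPM + 1) and log2(TPM + 0.1) the sign changed for the following genes, of which Slc26a6 alone lay below the median gene of those scales: Slc26a1 (-0.12, -0.12), Slc26a6 (-0.81, -0.94), Grhpr (-0.29, -0.29), Prodh (-0.060, -0.060), Bpnt1 (-0.194, -0.195), Slc25a1 (-0.13, -0.13), Idh1 (-0.016, -0.016), Idh3a (-0.16, -0.16), Idua (-0.094, -0.12) and Stk39 (-0.086, -0.090). The sign of Slc26a6 also changed on TPM without short non-coding genes (-0.51) and with the index range block (-0.080). Hoga1 was 0.048 without untreated replicates 1 and 2, and Slc13a5 ran from -0.56 to 0.037 (without untreated replicate 3) when 1 library was left out. Hao2 ran from -0.10 to 0.11 (without ergothioneine replicate 4) when 1 library was left out, with 0.0025 without untreated replicate 2, and was 0.040 without untreated replicates 1 and 2, 0.11 with the replicate block and 0.025 with the index range block. 4933411K16Rik was 0.012, 0.031, 0.015 and 0.0090 without untreated replicate 2, untreated replicate 3, ergothioneine replicate 1 and ergothioneine replicate 3. The cause of these shifts was not tested. At its depth, a difference in Agxt was not detectable.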

Other observations

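Slc13a5 had 1.192, 1.113, 1.052 and 1.418 CPM with ergothioneine and 1.247, 1.072 and 2.309 CPM untreated, with untreated replicate 3 the highest of the 7 kidneys. Slc26a10 had 0.9652, 1.265, 0.9349 and 0.8179 CPM with ergothioneine and 0.7934, 0.469 and 0.3848 CPM untreated, groups that do not overlap, from 6 to 25 counts per library; it did not pass (log2 fold change 0.83 ± 0.37, edgeR adjusted p = 0.209) and was named after its values were seen.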
